A study of Mus musculus with 20 samples.

Results

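The genes described are the NADPH oxidase genes of phagocytes (Cybb, Cyba and Ncf1), the dual oxidase genes and their maturation factors (Duox1, Duox2, Duoxa1 and Duoxa2), and the surface proteins Itgam and Ptprc of leukocytes. They are 9 of the 38355 genes in the deposited table and were taken by their symbols, with the values of all 20 libraries. The symbols were chosen on measured values, with the levels in these libraries in view. Differences between genotypes and the time course of the knockout are therefore given for the 9 genes as description with no test, and tests are given for the change over time in wild type. Wild-type levels were among those in view, and the FDR of these tests does not allow for that choice.

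NADPH oxidases move electrons from NADPH across a membrane to oxygen. In neutrophils and macrophages the enzyme is a membrane pair, the catalytic gp91phox (Cybb) and its partner p22phox (Cyba), switched on by cytosolic proteins of which p47phox (Ncf1) is the organizer. Airway epithelium carries another form, the dual oxidases, which release hydrogen peroxide at the apical surface and leave the endoplasmic reticulum only with a maturation factor, Duoxa1 for Duox1 and Duoxa2 for Duox2. Itgam is the alpha chain of the integrin Mac-1 (CD11b/CD18) and pairs with the beta chain Itgb2. Ptprc (CD45) is a phosphatase found on nearly all nucleated blood cells and serves as the general leukocyte marker.

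The cells were primary mouse tracheal epithelial cells grown on porous membranes and then exposed to air on their upper side. Basal cells in such cultures differentiate into multiciliated and secretory cells. PolyA RNA was sequenced at days 0, 4, 7 and 14 of air exposure from wild-type cells, with 3 libraries a day, and from cells labelled p73 knock-out, with 2 libraries a day. The extent of the deletion, the age and strain of the mice, and whether replicates were separate animals or pools are in none of the sources used here, so p-values measure the spread between these libraries, which may be technical. In both genotypes the day 4 library of replicate 1 has day 3 in its title; it was used as day 4, which its description gives. Libraries held 3.27 to 31.5 M reads assigned to genes, with the lowest in wild type day 4, replicate 3.

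Trp73, the gene named in the knockout label, was detected in every library so labelled, above every wild-type library at days 0 and 4 and with overlapping ranges at days 7 and 14. Its level was 1.07 to 2.70 CPM (the usual depth-scaled read count, with TMM scaling between libraries) in wild type at day 0 and 49.2 and 48.7 CPM in the labelled knockout. At day 4 it was 9.83 to 23.3 CPM in wild type and 35.1 and 27.5 CPM in the labelled knockout. At day 7 it was 22.2 to 34.9 CPM in wild type and 30.2 and 21.2 CPM in the labelled knockout, and at day 14 it was 23.3 to 27.2 CPM and 30.5 and 16.7 CPM. The part of the transcript these reads came from was not analysed here, so the level does not check the label, and the libraries are called labelled knockout throughout. Replicate 2 of the labelled knockout stood apart: ribosomal protein genes took 1.43%, 0.987%, 1.03% and 1.28% of its reads at days 0, 4, 7 and 14, the highest share of the libraries at each day. Its value is therefore printed apart from that of replicate 1 for the 7 of the 9 genes that passed the filter. The epithelial markers Epcam, Cdh1, Krt5, Krt8, Krt18, Krt19 and Trp63 had reads in every library and summed to 3801 to 12460 CPM.

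Of the 9 genes, 7 passed the filter on low values (0.5 CPM in at least 2 libraries). Duoxa2 passed through labelled knockout libraries alone. Ncf1 and Ptprc did not pass and are given as reads. Per kilobase of exon, the order in wild type at day 0 was Cyba at 135 ± 49.3 CPM per kb (SD, n = 3), then Duoxa1 at 9.29 ± 1.81. Itgam at 2.89 ± 1.27 and Cybb at 2.84 ± 0.305 CPM per kb did not differ beyond their spread. Duox1 followed at 1.63 ± 0.252, Duox2 at 0.469 ± 0.132 and Duoxa2 at 0.211 ± 0.105 CPM per kb. Ncf1 stood at 0.0262 ± 0.0453 and Ptprc at 0.00640 ± 0.00579 CPM per kb, within their spread of each other. The length used was that of all annotated exons joined, 18313 bp for Ptprc, 3663 bp for Ncf1 and 5024 bp for Itgam, so the order depends on it. In CPM, Ptprc stood at 0.117 ± 0.106 and Ncf1 at 0.0958 ± 0.166. In the labelled knockout at day 14 the order per kilobase began with Cyba (123 ± 84.1, n = 2) and Cybb (36.8 ± 7.03), ahead of Duoxa1 (4.48 ± 3.43).

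The genes lie on 6 chromosomes. In GRCm38 with GENCODE vM21, Cybb is at chrX:9435252-9487771 (minus strand), Cyba at chr8:122424776-122432930 (minus), Ncf1 at chr5:134220053-134229625 (minus), Itgam at chr7:128062640-128118491 (plus) and Ptprc at chr1:138062861-138175708 (minus). The 4 dual oxidase genes share 68726 bp of chromosome 2. Duox2 (chr2:122279247-122298449, minus) and Duoxa2 (chr2:122298900-122302885, plus) start 451 bp apart and point away from each other, as do Duoxa1 (chr2:122302191-122313730, minus) and Duox1 (chr2:122315672-122347972, plus), whose starts are 1942 bp apart. The exons of Duoxa1 and Duoxa2 overlap on opposite strands by 682 bp, which is 42.84% of the Duoxa2 exons. No source used here states the strand setting of the counting, so reads in that overlap cannot be told apart. Annotated Gm49368, which is not in the deposited table, shares 68.67% of the Itgam exon bases on the same strand, and Gtf2ird2 shares 11.14% of those of Ncf1 on the other strand.

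The 250 bases before the RefSeq start (GRCm38.p6) are shown for 3 genes: Cybb and Itgam, the phagocyte genes with the most reads apart from Cyba, and Duoxa2, the dual oxidase gene lowest in wild type. Capitals mark matches, on either strand, to 3 motifs. GAGGAA is the core bound by PU.1, the myeloid factor that Spi1 encodes. The AP-1 motif was searched as TGANTCA. For the TATA box the letters were TATAAA. The windows are chrX:9469325-9469574 (minus strand) for Cybb, which lies inside the GENCODE extent of the gene, chr7:128062390-128062639 (plus) for Itgam and chr2:122298650-122298899 (plus) for Duoxa2.
Cybb: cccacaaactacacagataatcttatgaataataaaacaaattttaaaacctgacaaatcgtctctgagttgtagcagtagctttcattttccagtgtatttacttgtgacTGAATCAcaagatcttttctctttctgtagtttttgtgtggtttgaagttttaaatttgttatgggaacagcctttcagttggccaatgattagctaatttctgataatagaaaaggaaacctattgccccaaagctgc
Itgam: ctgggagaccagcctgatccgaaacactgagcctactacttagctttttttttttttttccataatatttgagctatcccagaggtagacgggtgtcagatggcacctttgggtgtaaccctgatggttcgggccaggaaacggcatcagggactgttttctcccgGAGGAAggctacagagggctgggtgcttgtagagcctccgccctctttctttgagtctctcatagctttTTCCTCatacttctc
Duoxa2: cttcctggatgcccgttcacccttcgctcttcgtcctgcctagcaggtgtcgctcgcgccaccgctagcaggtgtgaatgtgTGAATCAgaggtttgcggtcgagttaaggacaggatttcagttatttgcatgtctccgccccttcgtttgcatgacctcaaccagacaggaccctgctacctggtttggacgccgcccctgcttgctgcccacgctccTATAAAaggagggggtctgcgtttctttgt

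The Itgam window held 2 matches to GAGGAA, 1 on each strand. Among the windows not shown, that of Duoxa1 and 1 of those of Ptprc also held 1 match each. At least 1 match to GAGGAA occurred in 23.4% of the 32544 mouse windows of this length. The Cybb window held 1 AP-1 match and the Duoxa2 window 1 AP-1 match and 1 TATA box, motifs found in 6.73% (AP-1) and 12.3% (TATA box) of all windows. These matches are letters in a window and do not show that a factor binds there.

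**Figure D1:**
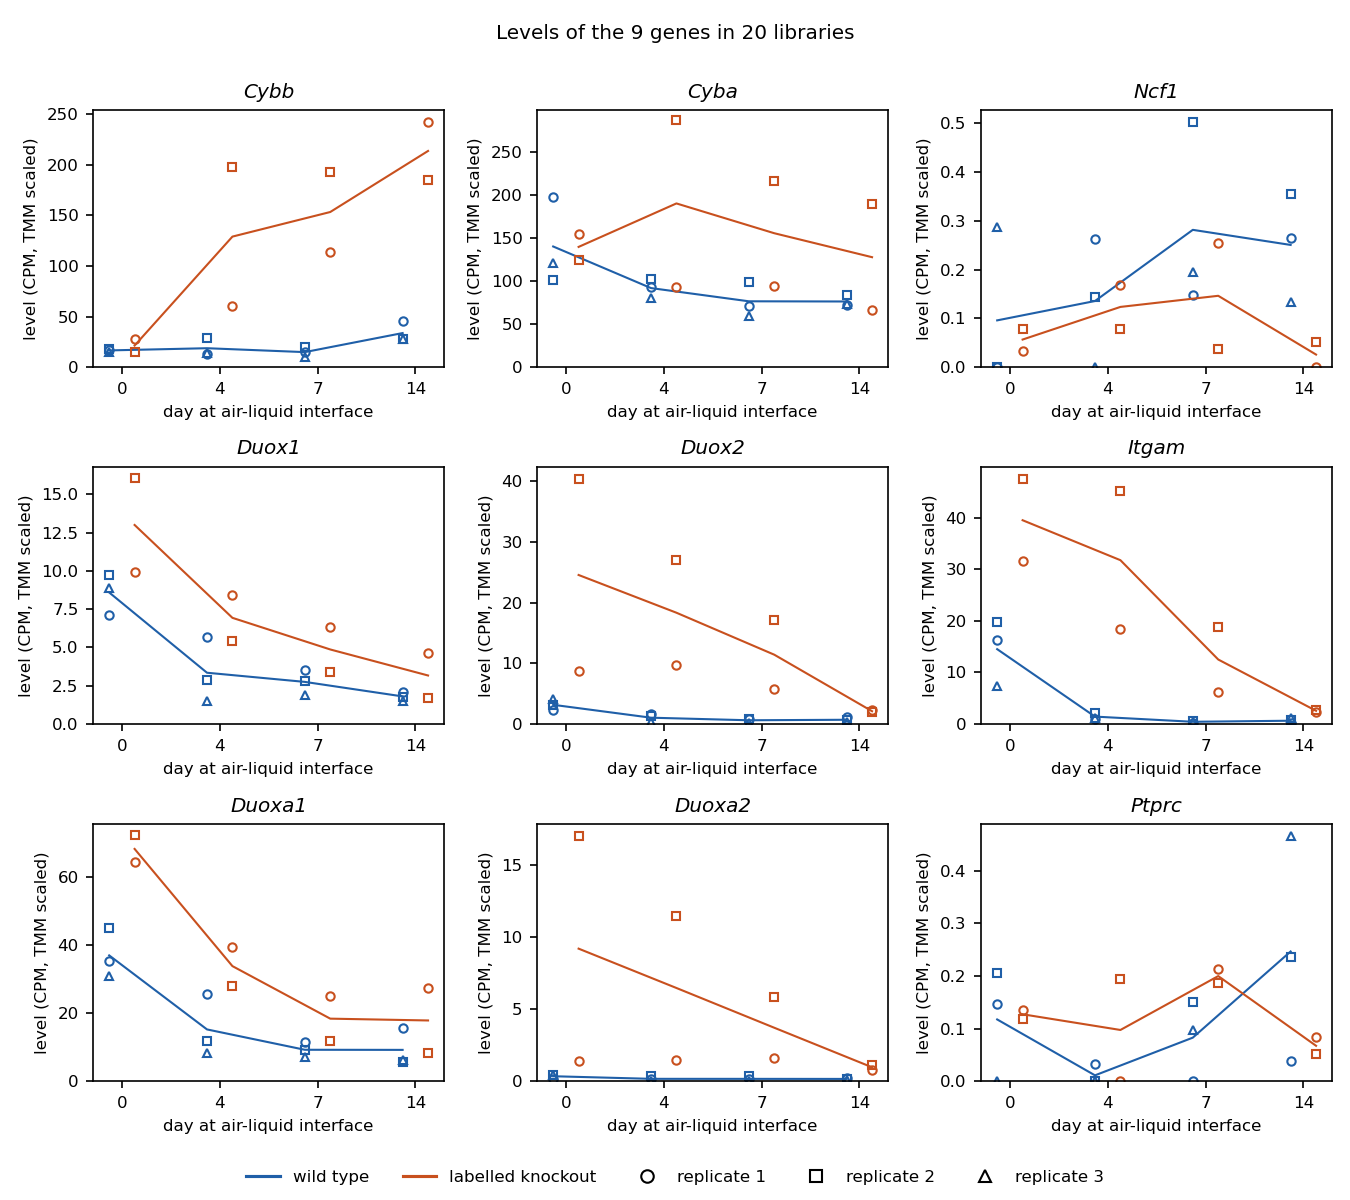
Level in CPM (y axis, linear, from 0) by day (x axis, categories) for each of the 9 genes. Points are single libraries with a shape for each replicate number, lines join the means, blue is wild type (n = 3 a day) and orange the labelled knockout (n = 2 a day). Cybb reached 185 to 243 CPM in the labelled knockout at day 14 while Ncf1 and Ptprc stayed at or under 0.502 CPM in every library.

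Cybb, the catalytic subunit, stayed between 9.72 and 45.7 CPM in wild type and reached 243 CPM in the labelled knockout. Wild-type libraries measured 16.6, 18.2 and 14.7 CPM at day 0, 13.3, 28.7 and 14.0 at day 4, 15.2, 19.5 and 9.72 at day 7, and 45.7, 27.7 and 27.6 at day 14. The labelled knockout (replicate 1, then 2) measured 27.5 and 15.1 CPM at day 0, 60.7 and 197 at day 4, 113 and 193 at day 7, and 243 and 185 at day 14. Genotypes overlapped at day 0 and did not overlap at any later day, where both labelled knockout libraries lay above all 3 of wild type.

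In log2(CPM + 0.5) the Cybb difference, labelled knockout minus wild type, was 0.30 ± 0.45 (SE) at day 0, 2.61 ± 0.45 at day 4, 3.33 ± 0.45 at day 7 and 2.68 ± 0.45 at day 14. Without replicate 2 of the labelled knockout at the day in question it was 0.72, 1.76, 2.95 and 2.87, and without replicate 1 -0.12, 3.46, 3.72 and 2.48, so the sign at day 0 depended on the library. The authors' deposited table lists log2 fold changes of 0.31, 2.5, 3.22 and 2.62 for these days. Within the labelled knockout, mean Cybb was 21.3 CPM at day 0 and 214 CPM at day 14, a log2 difference of 3.35 ± 0.49. Within wild type none of the 3 later days was called against day 0 by limma: the differences were 0.09 ± 0.40 (FDR 0.899), -0.20 ± 0.40 (FDR 0.738) and 0.97 ± 0.40 (FDR 0.0637). The day 14 difference in wild type was called by DESeq2 (FDR 0.0326), and by limma under library size alone (0.0381), with the replicate block (0.0477), without the libraries titled day 3 (0.025) and on wild-type libraries alone (0.0226).

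Cyba, the partner that stabilizes the catalytic subunit and that other NADPH oxidases share, was the most abundant of the genes per kilobase. Wild-type libraries measured 198, 101 and 121 CPM at day 0 and 59.2 to 103 CPM at later days. The labelled knockout measured 155 and 125 CPM at day 0, 93.1 and 288 at day 4, 94.7 and 217 at day 7, and 66.0 and 190 at day 14. Genotypes overlapped at every day, and at days 4, 7 and 14 replicate 2 of the labelled knockout lay above all other libraries of its day. The log2 differences between genotypes were 0.05 ± 0.46, 0.84 ± 0.46, 0.93 ± 0.46 and 0.55 ± 0.46. Without replicate 2 they were 0.20, 0.03, 0.34 and -0.20, and without replicate 1 -0.11, 1.65, 1.53 and 1.31. In wild type limma called no later day against day 0, with differences of -0.56, -0.84 and -0.82 ± 0.41 (FDR 0.354, 0.128 and 0.129). Fitted on the wild-type libraries alone, days 7 and 14 were called (FDR 0.0142 and 0.0153).

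Ncf1, the cytosolic organizer without which the phagocyte enzyme is not assembled, was near the limit of detection. All 20 libraries together held 72 Ncf1 reads (95% exact Poisson interval 56.3 to 90.7, counting error only), against 30578 of Cybb and 53776 of Cyba. No library held more than 10, and 4 libraries held 0, where 3 reads would be 0.125 to 0.896 CPM. Wild type held 7, 11, 18 and 18 Ncf1 reads at days 0, 4, 7 and 14 and the labelled knockout 3, 7, 7 and 1.

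Among the other NADPH oxidase genes, 8 of 10 passed the filter. Nox1, an epithelial catalytic subunit, had 64 reads over the 20 libraries and Nox3, known from the inner ear, had 0. In wild type Rac2, a small GTPase of blood cells that activates the phagocyte enzyme, rose from 0.446 to 2.19 CPM at day 4 (1.42 ± 0.47, FDR 0.0349), 4.79 CPM at day 7 (2.39 ± 0.47, FDR 0.000801) and 3.69 CPM at day 14 (2.03 ± 0.47, FDR 0.00254). Ncf4, the cytosolic p40phox, was called lower at all 3 days (-1.42 ± 0.49 at day 4, FDR 0.0409), but at none of them once wild type day 0 replicate 1 was left out (FDR 0.181, 0.166 and 0.184). Rac2 at day 4 was not called without wild type day 4 replicate 3 (FDR 0.139). No wild-type library of day 0 reached 0.5 CPM of Rac2. It passed the low-value filter only with libraries of later days, which favours a call of higher at those days.

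Nox4, a catalytic subunit that needs Cyba and no cytosolic activator, fell in wild type by day 7 (-1.31 ± 0.32, FDR 0.00369) and day 14 (-1.28 ± 0.32, FDR 0.00373). Cybc1 (listed under BC017643), a chaperone of the Cybb and Cyba pair, fell slightly at day 7 (-0.34 ± 0.12, FDR 0.0342) and day 14 (-0.37 ± 0.12, FDR 0.0193). Noxo1, an organizer related to Ncf1 and paired with Nox1, rose at day 14 to 9.08 from 4.30 CPM (0.98 ± 0.28, FDR 0.0108). Leaving out wild type day 0 replicate 3 ended the Cybc1 call at day 7 (FDR 0.114), and leaving out wild type day 14 replicate 2 ended those of Cybc1 (0.0893) and Noxo1 (0.0575) at day 14.

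In wild type, then, limma called 1 of the 8 higher and 1 lower at day 4, 1 and 3 at day 7, and 2 and 3 at day 14. Of all 15738 genes tested, 13.7% were called higher and 13.3% lower at day 4, 19% and 16.4% at day 7, and 21.8% and 18.5% at day 14. Between genotypes limma called 1 gene of the 8 over the 4 days. That gene was Nox4 at day 7, with 1.96 and 1.72 CPM in the labelled knockout against 0.740, 0.151 and 0.243 in wild type (1.47 ± 0.35, FDR 0.0468). The call was lost with the replicate number as a block (FDR 0.0612), in edgeR (FDR 0.055) and without labelled knockout day 7 replicate 1 (FDR 0.274). At days 4 and 14 the Nox4 differences were 1.04 and 0.98 ± 0.35 (FDR 0.271 and 0.175).

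Among all genes the share called between genotypes was 2.2% at day 0, 1.15% at day 4, 1.64% at day 7 and 4.21% at day 14. With the replicate block the number called at day 4 was 290 in place of 181. At days 0, 4 and 14 limma called 0 of the 8 other oxidase genes, 1, 3 and 2 had an unadjusted p under 0.05, edgeR called 0, and DESeq2 called 1 at day 4. Noxa1, a cytosolic activator of Nox1, measured 4.60 and 16.7 CPM in the labelled knockout at day 4 against 0.884, 2.41 and 0 in wild type (2.89 ± 0.73, FDR 0.0744). At days 7 and 14 the Noxa1 differences were 2.05 and 1.24 ± 0.73 (FDR 0.253 and 0.592). Noxo1 lay the other way at day 14 (-0.87 ± 0.32, FDR 0.183).

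Enzymes that handle superoxide and hydrogen peroxide were called higher more often than lower in wild type. Of 16 tested, 4 rose and 1 fell at day 4, 5 rose and 2 fell at day 7, and 7 rose and 2 fell at day 14, where 13.7%, 19% and 21.8% of all genes were called higher and 13.3%, 16.4% and 18.5% lower. Leaving out 1 library ended the calls of Gpx1 at day 4 (FDR up to 0.0634), Sod1 at day 7 (0.0872) and Prdx5 at day 14 (0.181). Catalase (Cat) rose from 113 to 362 CPM by day 14 (1.68 ± 0.14, FDR 7.72e-08), Gpx2, an epithelial glutathione peroxidase, from 238 to 706 CPM (1.59 ± 0.18, FDR 1.59e-06), and the mitochondrial superoxide dismutase Sod2 from 60.01 to 172 CPM (1.53 ± 0.19, FDR 6.39e-06). The glutathione peroxidases Gpx1 and Gpx3 were the genes that fell at day 14 (-1.10 ± 0.18, FDR 0.000117, and -1.52 ± 0.32, FDR 0.00113). Between genotypes limma called 0 of the 16 at each day, edgeR 0 and DESeq2 1 (at day 14), with 3, 2, 2 and 2 at an unadjusted p under 0.05.

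Duox1 and Duoxa1, an oxidase and its own maturation factor, fell together in wild type. Duox1 measured 7.14, 9.76 and 8.87 CPM at day 0, 5.67, 2.89 and 1.49 at day 4, 3.55, 2.81 and 1.90 at day 7, and 2.12, 1.77 and 1.53 at day 14. Every later wild-type library lay below every day 0 library. The log2 difference from day 0 was -1.38 ± 0.39 at day 4 (FDR 0.0151), -1.50 ± 0.39 at day 7 (FDR 0.00652) and -1.98 ± 0.39 at day 14 (FDR 0.00066). Leaving out wild type day 4 replicate 3 or day 0 replicate 2 ended the day 4 call (FDR 0.0971 and 0.0503).

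Duoxa1 in wild type measured 35.2, 44.9 and 30.8 CPM at day 0, 25.5, 11.7 and 8.37 at day 4, 11.5, 9.14 and 7.00 at day 7, and 15.7, 5.47 and 6.32 at day 14. It too lay lower in all later libraries than in all day 0 libraries. Its log2 differences from day 0 were -1.39 ± 0.46 (FDR 0.0338), -1.96 ± 0.46 (FDR 0.00317) and -2.09 ± 0.46 (FDR 0.0016). At day 4 the Duoxa1 call was lost in edgeR (FDR 0.071), without the low-value filter (0.0573), under scaling by library size alone (0.0508) and when any of 5 of the 6 wild-type libraries of days 0 and 4 was left out (0.056 to 0.162).

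In the labelled knockout this pair was also lower at each later day than at day 0. Duox1 measured 9.94 and 16.05 CPM at day 0, 8.42 and 5.45 at day 4, 6.34 and 3.40 at day 7, and 4.65 and 1.69 at day 14. Duoxa1 measured 64.2 and 72.2 CPM at day 0, 39.5 and 28.1 at day 4, 24.9 and 11.8 at day 7, and 27.5 and 8.16 at day 14. The genotypes overlapped for Duox1 at days 4, 7 and 14 and for Duoxa1 at day 14. Log2 differences between genotypes lay between 0.54 and 1.07 ± 0.44 for Duox1 and between 0.84 and 1.26 ± 0.52 for Duoxa1. At day 14 both rested on replicate 1: without it they were -0.06 for Duox1 and -0.01 for Duoxa1. At day 7 they were 0.30 and 0.37 without replicate 1 and 1.10 and 1.42 without replicate 2, and Duox1 at day 0 was 0.21 without replicate 2.

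Duox2 and Duoxa2, the pair that is known to be inducible in airway epithelium, were scarce in wild type. Duox2 measured 2.33, 3.09 and 4.11 CPM at day 0, 1.60, 1.25 and 0.299 at day 4, 0.888, 0.804 and 0.194 at day 7, and 1.17, 0.630 and 0.333 at day 14. Its difference from day 0 was -1.33 ± 0.55 at day 4 (FDR 0.0844), -1.74 ± 0.55 at day 7 (FDR 0.0206) and -1.63 ± 0.55 at day 14 (FDR 0.0255). Day 4 was called on wild-type libraries alone (FDR 0.0306) and on the deposited values as they stand (0.0487). The calls at days 7 and 14 were lost with a pseudocount of 2 (FDR 0.0911 and 0.0973). Leaving out wild type day 0 replicate 3 (0.0716) or day 7 replicate 3 (0.0969) also ended the day 7 call. The day 14 call ended when any of 4 wild-type libraries was left out, replicates 2 and 3 of days 0 and 14 (0.0571 to 0.0986). Duoxa2 had 0 to 11 reads in each wild-type library, at most 0.452 CPM. At these levels a change over time in wild type was not detectable at this depth.

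In the labelled knockout Duox2 measured 8.79 and 40.4 CPM at day 0, 9.71 and 27.0 at day 4, 5.78 and 17.1 at day 7, and 2.24 and 2.00 at day 14. Duoxa2 measured 1.39 and 17 CPM at day 0, 1.49 and 11.4 at day 4, 1.57 and 5.83 at day 7, and 0.788 and 1.13 at day 14. All labelled knockout libraries lay above all wild-type libraries of their day for both genes. Replicate 2 exceeded replicate 1 in Duoxa2 by 12.2 times at day 0, 7.69 at day 4, 3.71 at day 7 and 1.43 at day 14. The log2 difference between genotypes for Duox2 was 2.43, 3.55, 3.28 and 1.17 ± 0.62 at the 4 days, and without replicate 2 of the labelled knockout 1.37, 2.83, 2.54 and 1.24. For Duoxa2 it was 2.80, 2.92, 2.51 and 1.16 ± 0.75, and without replicate 2 it was 1.20, 1.63, 1.70 and 0.99.

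**Figure D2:**
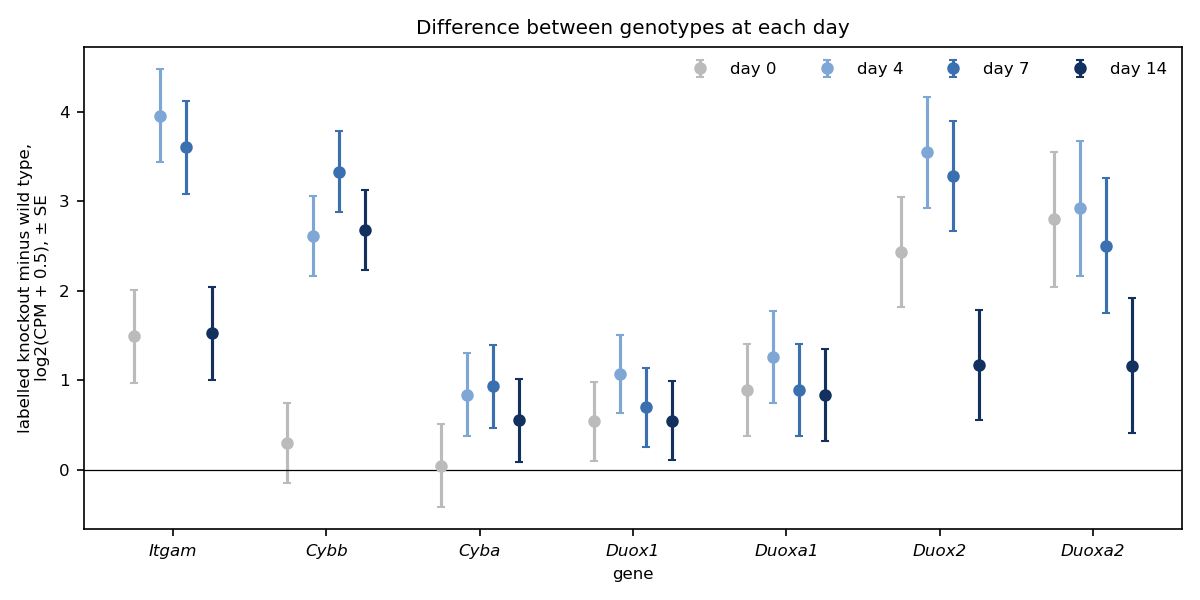
Difference between genotypes (y axis, labelled knockout minus wild type, log2(CPM + 0.5), moderated SE of limma) for the 7 genes that passed the filter (x axis), with days 0, 4, 7 and 14 from light to dark. Itgam at day 4 has the highest point, 3.96 ± 0.52, and Cyba at day 0 the lowest, 0.05 ± 0.46.

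Itgam, the alpha chain of Mac-1, fell steeply in wild type after air exposure. The 3 libraries measured 16.3, 19.9 and 7.43 CPM at day 0, 0.983, 2.17 and 1.20 at day 4, 0.296, 0.653 and 0.389 at day 7, and 0.113, 0.709 and 1.13 at day 14. Every later wild-type library lay below the lowest of day 0. The log2 difference from day 0 was -2.89 ± 0.47 at day 4 (FDR 0.000201), -3.90 ± 0.47 at day 7 (FDR 5.35e-06) and -3.71 ± 0.47 at day 14 (FDR 6.64e-06). Each of these calls was kept in every alternative run.

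The labelled knockout measured 31.5 and 47.4 CPM of Itgam at day 0, 18.3 and 45.2 at day 4, 6.17 and 18.9 at day 7, and 2.32 and 2.82 at day 14. The genotypes did not overlap at any day. At day 4 replicate 1 of the labelled knockout lay within the wild-type day 0 range and replicate 2 above it. Log2 differences between genotypes were 1.49, 3.96, 3.60 and 1.52 ± 0.52 at the 4 days, and without replicate 2 of the labelled knockout 1.20, 3.32, 2.83 and 1.41. The authors' deposited table lists 1.28, 3.95, 4.22 and 1.64. Within the labelled knockout the difference from day 0 was -0.42 ± 0.57 at day 4, -1.79 ± 0.57 at day 7 and -3.68 ± 0.57 at day 14.

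Counted over the 7 genes that passed the filter, both labelled knockout libraries lay above all wild-type libraries for 5 genes at days 0, 4 and 7 and for 4 at day 14. The same held for 12.8%, 13.1%, 11.5% and 10.9% of all genes tested. All 7 differences were positive at each day, with medians of 0.89, 2.61, 2.51 and 1.16 against 0.03, 0.02, -0.02 and -0.01 over all genes. Leaving out 1 labelled knockout library reversed the sign of Cybb and Cyba at day 0 and of Cyba, Duox1 and Duoxa1 at day 14. The genes were chosen with these levels in view, so nothing is read from these counts, signs or medians. In wild type, leaving aside Duoxa2, limma called 3 of 6 lower at day 4 (Itgam, Duox1 and Duoxa1) and 4 at days 7 and 14 (with Duox2), against the shares of 13.3%, 16.4% and 18.5% given above. At day 4 the count was 1, Itgam, without wild type day 4 replicate 3 or day 0 replicate 2. None was called higher by limma, and 1 (Cybb at day 14) had an unadjusted p under 0.05. With Duoxa2 included, the medians of these wild-type differences were -1.33, -1.51 and -1.63, and those of all genes lay between -0.001 and 0.01. Wild-type levels were also in view when the genes were chosen, so nothing is read from these wild-type counts and medians either.

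Itgam reaches the cell surface only with the beta chain Itgb2, which fell in wild type from 4.11 CPM at day 0 to 0.419, 0.169 and 0.0736 CPM at days 4, 7 and 14 (-2.13, -2.59 and -2.81 ± 0.32, FDR 0.000107, 8.03e-06 and 2.46e-06). The labelled knockout measured 6.82 and 5.38 CPM of Itgb2 at day 0, 1.22 and 0.934 at day 4, 0.298 and 0.224 at day 7, and 0.0415 and 0.257 at day 14. At day 4 Itgam in the labelled knockout was thus at 46.4% and 114% of its own day 0 mean in replicates 1 and 2, and Itgb2 at 20% and 15.3%. Between genotypes limma did not call Itgb2 at any day. Itgal, the alpha chain of LFA-1 and another partner of Itgb2, ran the other way in wild type, from 0.117 CPM at day 0 to 1.27, 6.71 and 8.84 CPM (1.38, 3.52 and 3.85 ± 0.42, FDR 0.0215, 5.22e-06 and 1.4e-06). Itgal passed the low-value filter through libraries of later days alone, which favours a call of higher at those days.

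Itgal was lower in the labelled knockout, at 0.425 and 2.02 CPM against 5.40, 5.63 and 9.09 at day 7 (-2.20 ± 0.47, FDR 0.0246) and 0.954 and 1.08 against 5.33, 8.27 and 12.9 at day 14 (-2.54 ± 0.47, FDR 0.00446). Both calls were lost in edgeR (FDR 0.18 and 0.0564) and without replicate 1 of the labelled knockout at that day (FDR 0.348 and 0.0562). Fermt3, the kindlin that activates integrins of blood cells, rose in wild type (1.34 ± 0.29 at day 14, FDR 0.00125), and Icam1, a ligand of Mac-1 and LFA-1 that epithelial cells carry, fell at day 14 (-0.64 ± 0.18, FDR 0.00882). Leaving out wild type day 4 replicate 2 ended the Itgal call at day 4 (FDR 0.114), and leaving out wild type day 0 replicate 3 that of Icam1 (FDR 0.0561). Itgax, the alpha chain of CD11c, had 134 reads in all and Itgad had 1. Of the 5 genes tested here besides Itgam (Itgb2, Itgal, Itgax, Fermt3 and Icam1), 2 were called higher and 1 lower in wild type at days 4 and 7, and 2 and 2 at day 14. The shares over all genes were 13.7% and 13.3%, 19% and 16.4%, and 21.8% and 18.5%. Between genotypes limma called 1 at days 7 and 14 each, against 1.64% and 4.21% of all genes, and at both days edgeR called 0 and DESeq2 1. At days 0 and 4 limma, edgeR and DESeq2 called 0, with 0 and 2 at an unadjusted p under 0.05 in limma.

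**Figure D3:**
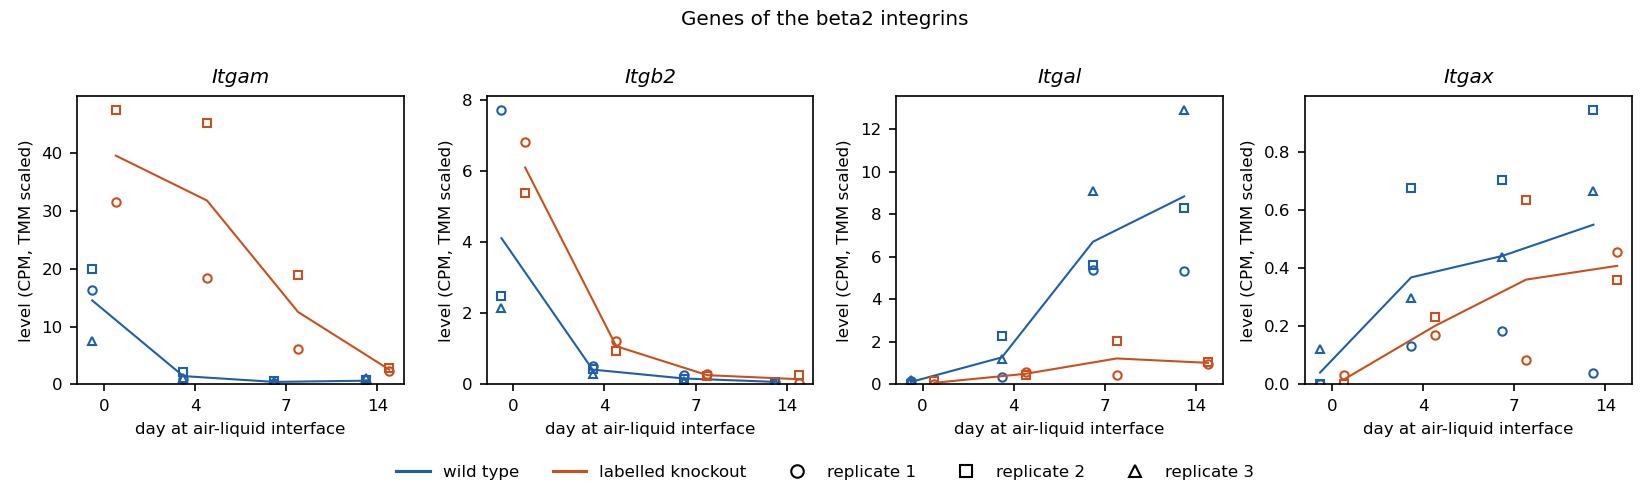
Level in CPM (y axis, linear, from 0, its own scale in each panel) by day (x axis, categories) of the alpha chains Itgam, Itgal and Itgax and the beta chain Itgb2. Points are libraries with a shape for each replicate number, lines join means, blue is wild type (n = 3 a day) and orange the labelled knockout (n = 2 a day). Itgam and Itgb2 fall from day 0, and wild-type Itgal reaches 5.33 to 12.9 CPM at day 14 against 0.954 and 1.08 CPM in the labelled knockout.

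Ptprc was close to the limit of detection in every library, including those richest in Itgam and Cybb. The 20 libraries together held 50 Ptprc reads (95% exact Poisson interval 37.1 to 65.9), with at most 7 in a library and 0 in 5 libraries. The highest Ptprc level was 0.466 CPM, in wild type day 14 replicate 3, and where Ptprc had 0 reads the limit that 3 reads set was 0.101 to 0.896 CPM. At day 0 wild type held 693 Itgam reads beside 5 of Ptprc, and the labelled knockout 2130 beside 7. At day 4 the counts were 79 beside 1 and 1703 beside 5, at day 7 they were 29 beside 5 and 649 beside 10, and at day 14 they were 38 beside 14 and 111 beside 3. The group with the fewest Itgam reads per Ptprc read was thus wild type at day 14. In bulk RNA, fewer cells of a type and less RNA per cell cannot be told apart.

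Other general leukocyte genes were low as well, apart from Laptm5. The 11 general leukocyte genes besides Ptprc (Cd52, Cd53, Laptm5, Tyrobp, Fcer1g, Spi1, Vav1, Coro1a, Hcls1, Was and Lcp2) summed to 2.26 to 16.3 CPM. Their sum was 12.1 to 16.3 CPM in wild type and 11.7 to 14.9 in the labelled knockout at day 0, 2.59 to 5.45 and 5.45 to 6.15 at day 4, 2.26 to 3.97 and 6.92 to 7.48 at day 7, and 4.04 to 8.05 and 7.43 to 10.8 at day 14. The lysosomal protein Laptm5 had 1.21 to 13.9 CPM of this and Cd53 0 to 2.06 CPM. At day 0 Laptm5 measured 11.3, 13.9 and 12.7 CPM in wild type and 13.5 and 10.6 in the labelled knockout. The wild-type means of Cybb and Itgam at that day were 16.5 and 14.5 CPM. Spi1, which encodes PU.1 (listed as Sfpi1), had 32 reads over all libraries and 0 in 8 of them. Tyrobp, a signalling adaptor of myeloid cells, had 12 reads and was at 0 in 15 libraries.

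Marker lists of single leukocyte types were mixed. Some of their sums moved in part with the oxidase genes, and the largest were mostly S100a9 (neutrophil) and Lyz2 (macrophage). The 12 neutrophil genes summed to 0 to 0.756 CPM in wild type and 0.166 to 6.58 CPM in the labelled knockout. S100a9, which epithelial cells also make, was 5.68 of the 6.58 CPM in labelled knockout day 4 replicate 2. In day 7 replicate 2 it was 3.33 of the 4.00 CPM. Ly6g, a neutrophil surface marker, had 84 reads over all libraries, 45 of them in labelled knockout day 0 replicate 1 (1.53 CPM), and was called lower in wild type at days 4, 7 and 14 (FDR 0.0491, 0.0381 and 0.0199). Each of these calls ended on leaving out 1 library (FDR up to 0.127, 0.1 and 0.0529). Ly6g also passed the filter through day 0 libraries alone, which favours a call of lower at later days. The other defining genes Elane and Ngp had 1 read each, Csf3r 2 and Camp 6 over all libraries. By day, labelled knockout against wild type, the neutrophil sum was 2.78 to 3.32 against 0.616 to 0.756 CPM at day 0, 0.643 to 6.58 against 0 to 0.360 at day 4, 0.510 to 4.00 against 0.194 to 0.333 at day 7, and 0.166 to 0.667 against 0.0666 to 0.236 at day 14. The 7 lymphocyte genes summed to 0.299 to 2.77 CPM, with Ms4a1 and Nkg7 at 0 in all 20 libraries.

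The 11 macrophage genes summed to 360 and 543 CPM in the labelled knockout at day 0 against 293 to 703 in wild type, to 1217 and 7852 against 889 to 1457 at day 4, to 1324 and 5327 against 726 to 1344 at day 7, and to 1177 and 2985 against 917 to 1034 at day 14. This sum was mostly Lyz2, Cd14 and Cd68, which airway epithelium also makes. Lyz2 alone was 7213 of the 7852 CPM in labelled knockout day 4 replicate 2. Of the other macrophage genes, Csf1r had 0.117 to 5.26 CPM, and Mrc1 had 76 reads, Cx3cr1 25, Adgre1 11 and Marco 1 over all libraries. At day 4 Csf1r measured 1.49 and 0.117 CPM in the labelled knockout against 2.72, 2.07 and 1.79 in wild type (limma FDR 0.427). Its genotypes overlapped at the other days. C1qa, C1qb and C1qc had 38, 34 and 26 reads, of which 23, 18 and 15 were in wild type day 14 replicate 2. The part of such cells in the levels of Cybb, Cyba, Duox2, Duoxa2 and Itgam was not tested.

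**Figure D4:**
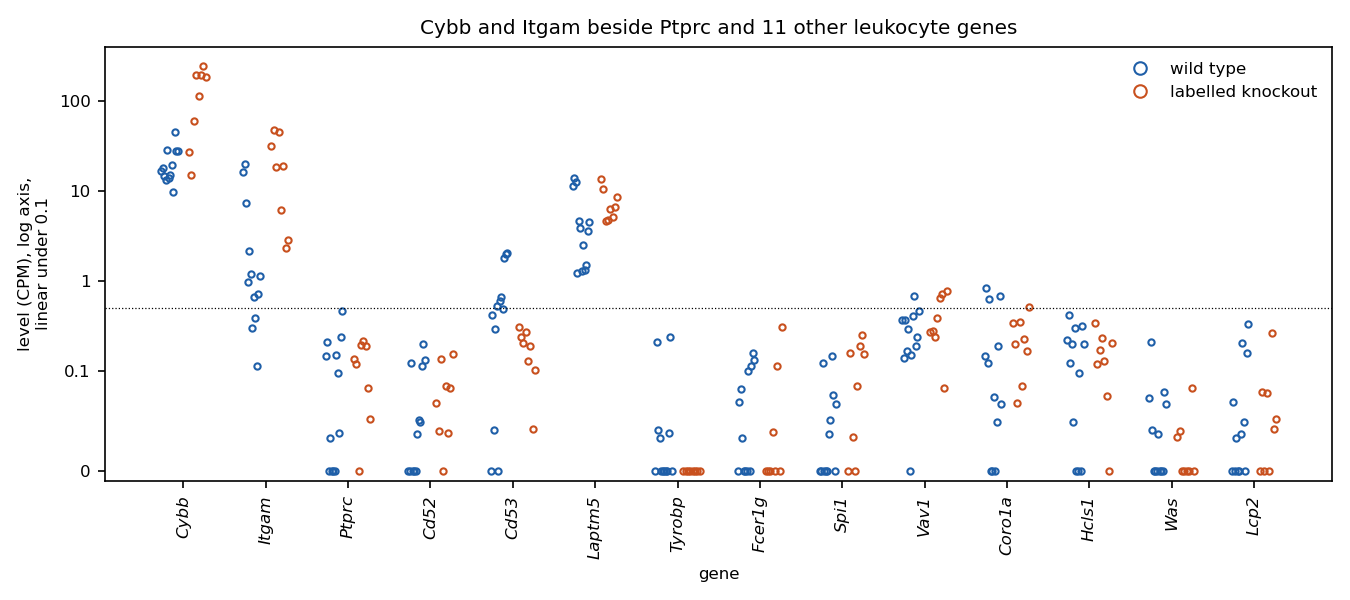
Level in CPM (y axis, log scale, linear under 0.1) of Cybb, Itgam, Ptprc and 11 other leukocyte genes (x axis) in each of the 20 libraries. Blue points are the 12 wild-type and orange points the 8 labelled knockout libraries, in order of day within a gene, and the dotted line is 0.5 CPM. Cybb is at or above 9.72 CPM in every library, while Ptprc is below the line in all of them.

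Across the 20 libraries, the log2 levels of each oxidase and its own maturation factor ran close together (Pearson r 0.956 for Duox1 and Duoxa1, 0.933 for Duox2 and Duoxa2). Itgam ran closest to Duox2 (r 0.886) and had r 0.266 with Cybb. These values describe 20 libraries that share 8 groups of genotype and day and differ in depth, so they mix time, genotype and library. In wild type alone (12 libraries) r was 0.937 for Duox1 and Duoxa1 and 0.775 for Duox2 and Duoxa2, and in the labelled knockout alone (8 libraries) 0.964 and 0.915. Within a genotype the highest r of Duox2 was not with its own factor. In wild type it was 0.932 with Duox1 and 0.914 with Duoxa1, and in the labelled knockout 0.933 with Itgam, close to the 0.915 with Duoxa2. Duoxa2 had only 0 to 11 reads in each wild-type library, and its exons overlap those of Duoxa1. No order of closeness within a genotype is therefore read from these values.

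Genes whose log2 level ran most like Itgam over the same 20 libraries were the ectonucleotidase Enpp3 (r 0.973), the protease Prss27 (0.957) and the interleukin 1 receptor antagonist Il1rn (0.955). For Cybb they were Slfn2 (r 0.912), Rab37 (0.899) and the metalloprotease Mmp12 (0.892), and for Cyba the proteasome activator subunit Psme2 (0.898), Fxyd3 (0.888) and Tmem242 (0.887). Duox1 ran most like Itpr3, an inositol trisphosphate receptor (0.978), Sh3pxd2a (0.964) and Col8a1 (0.957), and Duoxa1 like Slc25a48 (0.962), Vat1 (0.961) and Fam83g (0.958). Duox2 ran most like suprabasin (Sbsn, 0.957), Prkch (0.957) and Tmem171 (0.95), and Duoxa2 like the amino acid transporter Slc6a14 (0.946), Hopx (0.941) and the peptidoglycan recognition protein Pglyrp4 (0.939). The 3 genes named for each were the highest by Pearson r among tested genes with a mean of at least 2 CPM.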

How the data were processed

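RNA was extracted with an RNeasy kit and libraries were made with TruSeq RNA v2, per the labels' protocols. The submitters' processing notes name STAR 2.3.0e, DESeq2 1.4.5 and mm10, and no source used here gives their roles, the counting tool, the annotation or the strand setting. The deposited signal per gene is a normalized value, per the file headers. In each library it was a whole multiple, within 0.1 reads, of the value of 1 read, so whole reads were recovered and count tools could be run as alternatives. The authors also deposited log2 fold changes and p-values between genotypes, of which the log2 values of members are quoted.

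Reads were scaled by TMM (edgeR 4.0.16) to CPM. Genes with 0.5 CPM in at least 2 libraries (15738 of 38355) were fitted in limma 3.58.1 (R 4.3.3; trend, robust) on log2(CPM + 0.5) with 1 mean for each of 8 groups. The FDR is the Benjamini-Hochberg adjusted p over these genes, with calls under 0.05. A fold change on this scale understates changes of low genes. The SE is moderated, SD is between libraries, and intervals and limits cover counting error only. In all 16 pairs of libraries within a group, counts differed beyond sampling noise. The steps were tested on simulated data.

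Members and lists were chosen with earlier results of these data known. Named genes are all members, tested genes of the oxidase and integrin lists, called genes of other lists, and the 3 genes most like each member. 1 of the listed genes is not reported here by name. Replicate numbers paired the genotypes: departures from group means correlated in all 8 same-day pairs (r 0.247 to 0.579, 12336 genes). Pairs of the same day are not independent, since the departures of 2 libraries from their mean mirror each other. The main fit does not use this pairing, and the replicate block is given as an alternative. Alternatives were other scalings, a pseudocount of 2, no filter, edgeR, DESeq2 1.42.0, a replicate block, subsets of libraries and each library left out.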

Additional observations from a re-analysis of the deposited data

How the results depend on the processing

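Genes called between genotypes numbered 347 at day 0, 181 at day 4, 258 at day 7 and 663 at day 14. DESeq2 called 577, 362 and 524 at days 0, 4 and 7, and edgeR 441 at day 14. The libraries of a day alone gave 8, 59 and 435 at days 0, 4 and 7. Without the 2 libraries titled day 3 the counts were 290 at day 4 and 448 at day 7, and the replicate block gave 290 at day 4. Leaving out each library in turn gave 192 to 471 at day 0, 44 to 316 at day 4, 36 to 171 at day 7 and 253 to 657 at day 14, and in wild type 2929 to 4815, 4338 to 5946 and 5225 to 6689 for days 4, 7 and 14 against day 0.

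The wild-type Cybb difference at day 4 changed sign on the deposited values as they stand (-0.148) and without wild type day 4 replicate 2 (-0.259, range over libraries left out -0.259 to 0.30), and that at day 7 without wild type day 7 replicate 3 (0.065, range -0.42 to 0.065). None of these values was called. Within wild type, replicate numbers correlated above 0.1 in 4 of 9 pairs and were not taken as pairs; with the replicate block Cybb at day 14 (FDR 0.0477) and Duox2 at day 4 (0.0495) were called. The deposited values as they stand moved the median of all genes by -0.211 (log2) at day 4 and 0.144 at day 7 in wild type, and the share of calls that were higher from 50.7% to 26.6% and from 53.7% to 67%. Library size alone moved that share to 62.7%, 64.8% and 62.3% at days 4, 7 and 14 (54% at day 14 with TMM). Neither scaling reversed a called member. The causes were not tested. The 3.27 M reads of wild type day 4 replicate 3 limit what can be seen of Duoxa2, Ncf1 and Ptprc there.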

Other observations

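General leukocyte genes that passed the filter did not move as a block in wild type. Laptm5 fell from 12.6 CPM at day 0 to 3.19 CPM at day 14 (-1.93 ± 0.38, limma FDR 0.000565), whereas Cd53, a tetraspanin of leukocytes, rose from 0.151 to 1.95 CPM (1.96 ± 0.26, FDR 1.11e-05). At day 14 Cd53 was lower in the labelled knockout, at 0.0415 and 0.103 CPM in replicates 1 and 2 (-2.10 ± 0.29, FDR 0.000506). Cd53 passed the low-value filter through wild-type libraries of days 4, 7 and 14 alone, so the filter favoured both of these calls. Laptm5 lay the other way between genotypes. At day 7 it measured 6.34 and 5.12 CPM in the labelled knockout against 1.29, 2.51 and 1.31 in wild type (1.53 ± 0.42, FDR 0.0876). At day 14 it measured 6.68 and 8.52 CPM against 1.51, 3.54 and 4.53, and limma did not call it at any day. Cd79b, a chain of the B cell receptor, fell from 2.19 to 0.892 CPM by day 14 (-0.94 ± 0.34, FDR 0.0345), but not when wild type day 0 replicate 2 was left out (FDR 0.0854).

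Lyz2, the lysozyme of macrophages and airway epithelium, rose from 36.2 to 727 CPM in wild type by day 14 (4.45 ± 0.75, FDR 0.000157), while Cd68 fell from 55.6 to 14.2 CPM (-1.97 ± 0.28, FDR 2.76e-05).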
